A study of Mus musculus with 23 samples.

Results

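The genes described here are 35 genes of cholesterol and fatty acid synthesis, followed across hippocampal RNA-seq libraries of mice of 4 genotypes at about 5 months of age. They were chosen by name, as every row of the deposited table whose gene name matched one of the 35, out of 37173 genes in the table. All 35 were found, and all 35 were among the 19423 genes with enough reads to be tested. The mice carried AppNLGF together with loss of p16 (AppNLGF_p16KO, here also called the double mutant, n = 6), AppNLGF alone (n = 5), loss of p16 alone (p16KO, n = 6) or neither (WT, n = 6). AppNLGF is a knock-in allele of the mouse App gene, used as a model of the amyloid deposits of Alzheimer's disease, and p16 is an inhibitor of the cyclin D kinases encoded by Cdkn2a. The genotype labels give each mutant allele as homozygous. They name no other allele, and they do not say which part of Cdkn2a was deleted. Each library was made from polyA RNA of both hippocampi of 1 animal, and sex is not given in the labels.

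Libraries held 40700000 to 61200000 counts in genes. Cdkn2a had 0 to 8 reads per library in AppNLGF_p16KO, 2 to 9 in AppNLGF, 0 to 2 in p16KO and 0 to 6 in WT, too few to check the p16 label. Of the libraries, double-mutant library 21 alone passed the limit on squared distance in the leading principal components, at 12.4 against a limit of 11.1. It also held 1251 Xist reads beside 3905 reads of the Y-linked Ddx3y, against 99 to 497 Xist reads in the other libraries with over 1000 Ddx3y reads. Over 1000 Ddx3y reads were found in 12 libraries. The other 11 had at most 18, with at least 28216 Xist reads, so both sexes were present. The main fit and the correlations between genes were not adjusted for sex. Library numbers run by genotype, so any effect of handling order cannot be told apart from genotype. In whole tissue, fewer cells of a type and less RNA per cell cannot be told apart either. No marker of neurons, astrocytes, oligodendrocytes or microglia was at 0 in any library.

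Cells make cholesterol from acetyl-CoA by way of mevalonate and squalene, and fatty acids from acetyl-CoA by way of malonyl-CoA. The enzymes of both routes are switched on by the SREBP transcription factors, which SCAP carries to the Golgi when membrane sterol is low and which the INSIG proteins hold back when sterol is high. The adult brain makes nearly all of its own cholesterol, in astrocytes and oligodendrocytes above all, since plasma lipoproteins do not cross the blood-brain barrier.

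Per length, the 35 genes spanned a wide range of levels. Scd2, the stearoyl-CoA desaturase most abundant in brain, stood first with 362 ± 34.0 CPM (counts per 1000000 counts, after TMM scaling) per kb of exon (SD, n = 23). Fads2, which desaturates polyunsaturated fatty acids, followed at 66.4 ± 4.94 CPM per kb, and Hmgcs1, the cytosolic synthase of HMG-CoA, at 64.6 ± 12.6 CPM per kb, so these neighbours did not differ beyond their spread. Fasn, the fatty acid synthase itself, ranked ninth with 22.1 ± 3.22 CPM per kb. The lowest levels per length were those of Fdps, the farnesyl diphosphate synthase, at 1.00 ± 0.234 CPM per kb and of Idi1, the isopentenyl diphosphate isomerase, at 0.350 ± 0.0706 CPM per kb. Only uniquely aligned reads were counted, and 11.7% of the 50-base windows of Fdps and 21.3% of those of Idi1 also occur in transcripts of other genes. The same holds for 45.9% of the windows of Acat2, shared with Acat3, for 52.6% of those of Acaca, shared with the predicted gene Gm5182, for 26.5% of those of Me1 and for 10.9% of those of Fdft1. The levels of these 6 genes are therefore uncertain. The order also depends on the length used. Per kb of the longest transcript Hmgcs1 (85.6 CPM per kb) and Fads1 (70.6) stood above Fads2 (69.5), and Fasn had 24.0 CPM per kb and ranked eleventh, while Scd2 stayed first and Fdps and Idi1 last.

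The question put to the 35 genes was whether they differed between the genotypes, and most calls came in the double mutant against WT. There 13 of the 35 rose and 0 fell by edgeR's quasi-likelihood test with Benjamini-Hochberg adjustment over all genes tested, at a threshold of 0.05. Over all genes tested 9.56% were called in that comparison and 6.1% were called higher. The median log2 change of the 35 was 0.18, against 0.00 over all genes, and 31 of the 35 were above 0. The rise was mostly in sterol synthesis. All 18 enzymes among the 35 that act between acetyl-CoA and cholesterol had a higher mean in the double mutant. Of these 9 passed, with a median log2 change of 0.28. The 14 further sterol genes counted below had a median of 0.05, with 1 called. Of the 11 enzymes of fatty acid supply, synthesis, desaturation and elongation 3 passed, with a median of 0.07, and of the 6 regulators 1 passed. With length and GC trends removed, the medians were 0.12 for the fatty acid enzymes and 0.28 for the sterol enzymes. The changes were small: the called genes rose between 1.13-fold (Fads2) and 1.497-fold (Fdps).

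**Figure D1:**
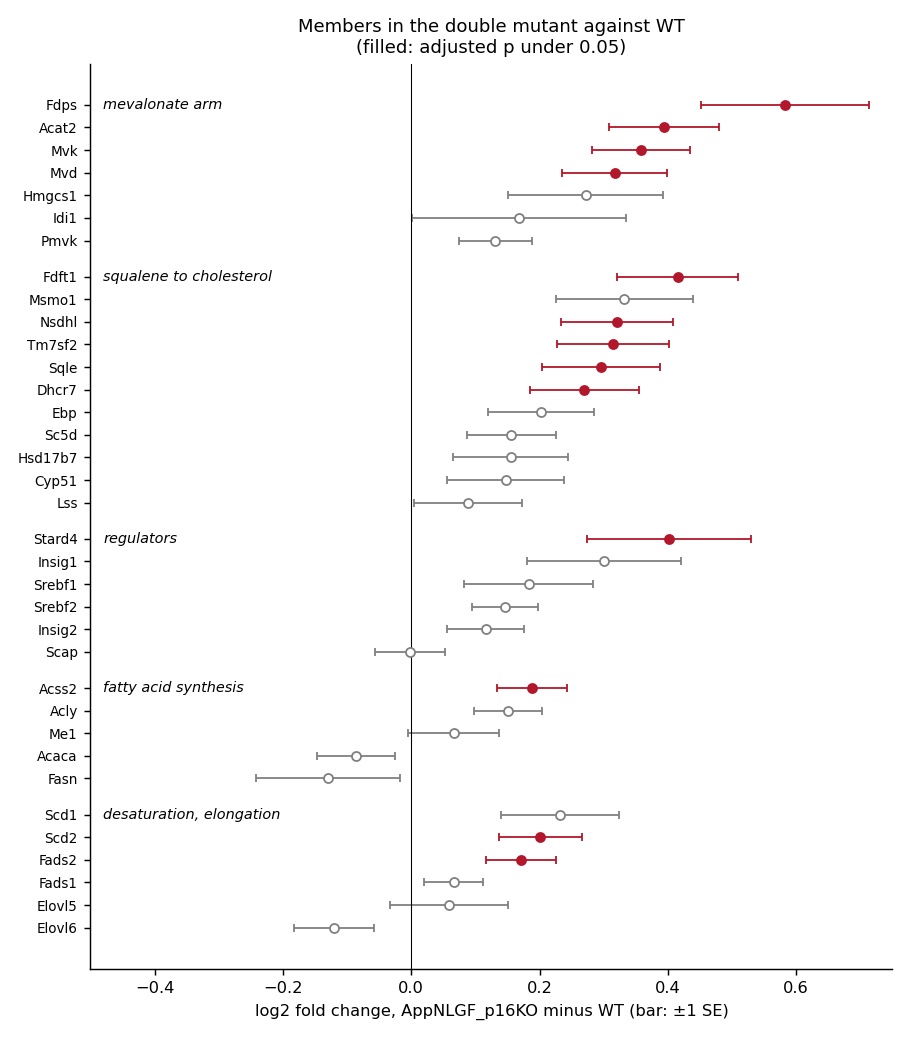
Log2 fold change of each of the 35 genes in AppNLGF_p16KO (n = 6) over WT (n = 6), with 1 SE on either side, grouped by arm of the pathway. Filled points passed an adjusted p of 0.05, and all 18 sterol enzymes lie right of 0, from Lss at 0.09 to Fdps at 0.58.

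In the mevalonate arm 4 of 7 enzymes rose. Mvk, mevalonate kinase, ranged between 21.2 and 27.0 CPM in the double mutant with a median of 22.0, and between 16.1 and 22.1 CPM in WT with a median of 17.7. Its log2 change was 0.36 ± 0.08 (SE, adjusted p = 0.00758). WT library 1, at 22.1 CPM, was the only WT library within the range of the double mutant. Acat2, the cytosolic thiolase that starts the pathway, ranged between 26.1 and 39.1 CPM in the double mutant (median 31.3) and between 22.9 and 30.0 CPM in WT (median 23.3), a log2 change of 0.39 ± 0.09 (adjusted p = 0.00961). Here 4 of the 6 double-mutant libraries were above every WT library, and WT library 1 was again the highest of its group. Fdps had the largest change of the 35, 0.58 ± 0.13 on the log2 scale (adjusted p = 0.0111), from a low level. It ranged between 4.23 and 6.63 CPM in the double mutant (median 5.48) and between 2.87 and 4.52 CPM in WT (median 3.59), and 5 of the 6 double-mutant libraries were above every WT library. Mvd, the diphosphomevalonate decarboxylase, ranged between 18.0 and 24.2 CPM in the double mutant (median 20.9) and between 14.7 and 20.0 CPM in WT (median 17.0), a log2 change of 0.32 ± 0.08 (adjusted p = 0.0206), with 3 double-mutant libraries above every WT library. Among the 3 that did not pass, Hmgcs1 averaged 346 ± 88.8 CPM in the double mutant and 286.5 ± 32.9 CPM in WT, with an adjusted p of 0.145. Pmvk, phosphomevalonate kinase, had a log2 change of 0.13 ± 0.06 and Idi1 one of 0.17 ± 0.17.

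From squalene to cholesterol 5 of 11 enzymes rose. Fdft1, squalene synthase, which commits the pathway to sterols, ranged between 70.6 and 114.5 CPM in the double mutant (median 88.4) and between 61.0 and 83.6 CPM in WT (median 67.5), a log2 change of 0.41 ± 0.10 (adjusted p = 0.0125). Sqle, squalene epoxidase, a rate-limiting step, ranged between 71.0 and 120.6 CPM in the double mutant (median 93.9) and between 69.1 and 86.5 CPM in WT (median 75.6), with an adjusted p of 0.0436. Its groups overlapped, since double-mutant library 23 had 71.0 CPM and WT library 1 had 86.5 CPM, and it passed in 15 of the 34 alternative analyses, which change a setting or leave out 1 library. Nsdhl, a dehydrogenase that helps strip methyl groups from the sterol ring, Tm7sf2, a sterol reductase, and Dhcr7, the reductase of the last step of one branch, rose by 0.32, 0.31 and 0.27 on the log2 scale with adjusted p between 0.0242 and 0.0450. Nsdhl ranged between 29.0 and 47.7 CPM in the double mutant (median 36.9) and between 24.8 and 33.2 CPM in WT (median 29.7). Tm7sf2 ranged between 15.1 and 21.4 CPM in the double mutant (median 16.2) and between 12.2 and 15.9 CPM in WT (median 14.2). Dhcr7 ranged between 46.9 and 68.0 CPM in the double mutant (median 53.6) and between 41.5 and 51.2 CPM in WT (median 47.0). The groups overlapped for all 3, with 4, 3 and 3 double-mutant libraries above every WT library, and Dhcr7 passed in 13 of the 34 alternatives. Msmo1, the methylsterol monooxygenase, lay just outside the threshold at an adjusted p of 0.0510, with a log2 change of 0.33 ± 0.11. Ebp, Sc5d, Hsd17b7, Cyp51 and Lss, which isomerize, desaturate, reduce, demethylate and close the sterol ring, had log2 changes between 0.09 and 0.20 and did not pass.

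Among the regulators Stard4, a carrier that moves cholesterol between membranes, rose. It ranged between 32.2 and 58.2 CPM in the double mutant (median 48.2) and between 30.1 and 44.2 CPM in WT (median 34.4), a log2 change of 0.40 ± 0.13 (adjusted p = 0.0495). It passed in 12 of the 34 alternatives, with an adjusted p of up to 0.151. Insig1, an SREBP target as well as its inhibitor, averaged 72.8 ± 16.5 CPM in the double mutant and 59.1 ± 4.08 CPM in WT, and its adjusted p was 0.105. The genes of the transcription factors themselves differed less. Srebf2, which encodes the factor for sterol genes, had a log2 change of 0.15 ± 0.05 (adjusted p = 0.0696), and Srebf1, which encodes the factor best known for fatty acid genes, one of 0.18 ± 0.10 (adjusted p = 0.246). Insig2, the second INSIG gene, was at 0.12 ± 0.06 and Scap at 0.00 ± 0.05, and neither passed.

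In fatty acid synthesis only Acss2, which makes acetyl-CoA from acetate, passed. It ranged between 70.3 and 89.4 CPM in the double mutant (median 75.2) and between 61.7 and 74.1 CPM in WT (median 66.3), a log2 change of 0.19 ± 0.06 (adjusted p = 0.0337), with 3 double-mutant libraries above every WT library. Acly, which makes acetyl-CoA from citrate, had a log2 change of 0.15 ± 0.05 with an adjusted p of 0.0664. Fasn and Acaca, the acetyl-CoA carboxylase that supplies malonyl-CoA, lay on the other side of 0, at -0.13 ± 0.11 and -0.09 ± 0.06, and neither passed. Me1, a source of NADPH, was at 0.07 ± 0.07. Among the desaturases Scd2 ranged between 1884 and 2572 CPM in the double mutant (median 2141) and between 1717 and 2074 CPM in WT (median 1844), a log2 change of 0.20 ± 0.07 (adjusted p = 0.0492). Fads2 ranged between 210.8 and 256.9 CPM in the double mutant (median 231.2) and between 189.4 and 222.6 CPM in WT (median 208.7), a log2 change of 0.17 ± 0.06 (adjusted p = 0.0495). The groups overlapped for both genes, with 4 double-mutant libraries above every WT library. Scd2 passed in 9 and Fads2 in 10 of the 34 alternatives, with adjusted p of up to 0.163 and 0.179. Scd1, the desaturase that is the main form in liver, and Fads1, the desaturase that acts after Fads2, did not pass, with log2 changes of 0.23 ± 0.09 and 0.07 ± 0.05. The elongases Elovl5 and Elovl6 were at 0.06 ± 0.09 and -0.12 ± 0.06.

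**Figure D2:**
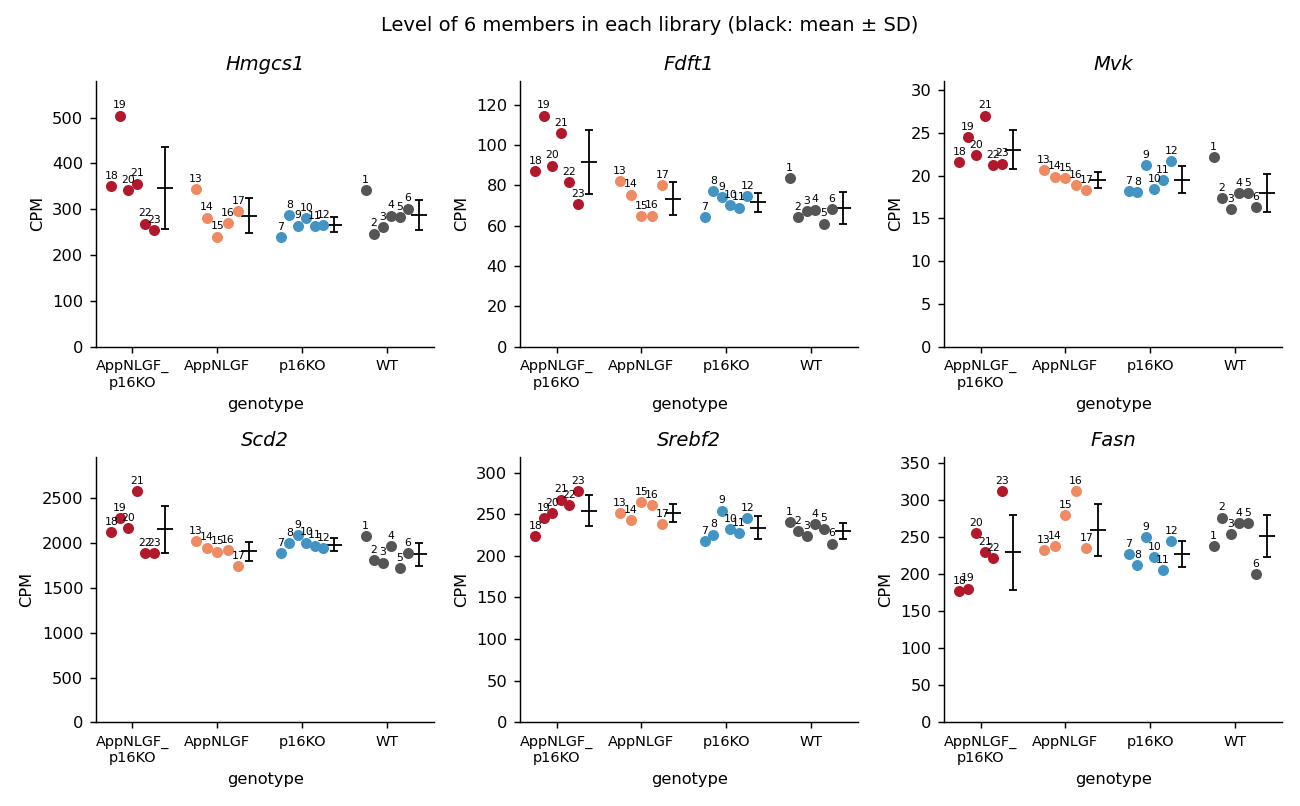
CPM of 6 members in every library, by genotype, with the library number beside each point and the mean ± SD in black (n = 6, 5, 6 and 6). Hmgcs1 reaches 504 CPM in double-mutant library 19 but 254.7 CPM in library 23, and Fasn runs the other way, at 180.8 CPM in library 19 and 312.1 CPM in library 23.

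The rise was uneven among the double-mutant libraries. Averaged over the 18 sterol enzymes, double-mutant libraries 18 to 23 stood at 0.25, 0.53, 0.25, 0.43, 0.12 and -0.05 relative to the WT mean on the log2 scale. The other genotypes ranged between -0.07 and 0.10 (AppNLGF), between -0.10 and 0.09 (p16KO) and between -0.11 and 0.19 (WT). Libraries 18 to 21 were thus above every library of the other genotypes, library 22 lay below WT library 1, and library 23 was near the WT mean. All 18 enzymes were above their WT mean in libraries 19 and 21, and 8 of 18 were in library 23. The median coefficient of variation of the 35 genes was 15.4% in the double mutant, 6.77% in AppNLGF, 7.33% in p16KO and 8.17% in WT. The 11 fatty acid enzymes averaged between -0.03 and 0.19 in the double mutant and between -0.04 and 0.05 in WT. The libraries also differed over genes at large. On the first principal component of 18768 genes, double-mutant libraries 18 to 23 stood at -17.6, -15.2, -14.6, -31.7, -6.45 and 16.2. The WT libraries lay between -10.4 (library 1) and 21.5 (library 5). The part of this wider difference in the uneven rise was not tested.

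**Figure D3:**
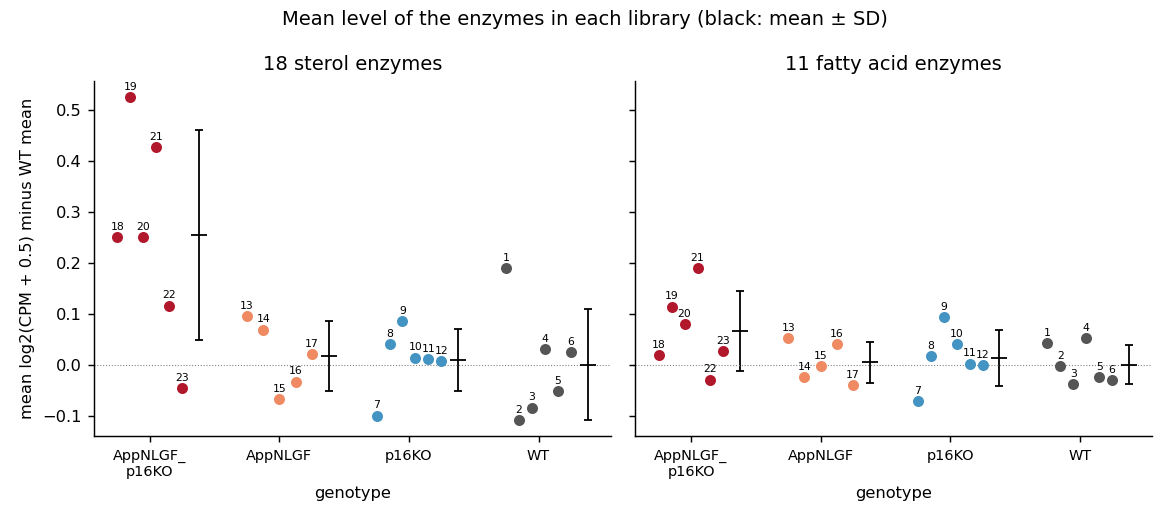
Mean log2(CPM + 0.5) of the 18 sterol enzymes (left) and the 11 fatty acid enzymes (right) in each library, relative to the WT mean, with library numbers and the mean ± SD of each genotype in black. Double-mutant libraries 19 and 21 are highest for sterol enzymes at 0.53 and 0.43, and library 23 is at -0.05.

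The count of called members changed with the libraries in the fit, and so did the share of all genes called. Without library 23 the count in the double mutant against WT was 23 of 35, all higher, while 23.0% of all genes were then called. Without library 21 it was 4 of 35 (Mvk, Acat2, Fdps and Fdft1), with 2.36% of all genes called, and without library 19 it was 6 of 35, with 10.5% of all genes called. Leaving out a WT library other than library 1 left 5 to 7 of 35, with 2.82% to 6.69% of all genes called. Leaving out any of AppNLGF libraries 14, 16 and 17 or p16KO libraries 11 and 12 left 8 of 35, with 8.27% to 8.97% of all genes called. Mvk, Acat2, Fdps and Fdft1 passed in all 34 alternative analyses, 23 of them with 1 library left out. These analyses are not separate checks. Leaving out the library past the distance limit repeats the fit without library 21. Omission of an AppNLGF or p16KO library leaves both compared groups whole.

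Markers of oligodendrocytes moved with library 21. The 10 markers averaged 0.60 above the WT mean on the log2 scale in library 21, against 0.04 in library 19 and 0.15 in library 23, and their summed level ranged between 5441 and 8772 CPM in the double mutant and between 5025 and 6615 CPM in WT. In the double mutant against WT 27.8% of all genes had an unadjusted p under 0.05, and 4 of these 10 markers did. Of the markers 0 passed by edgeR and 0 by DESeq2. With their mean as a covariate the members called fell to 4 of 35, with 2.69% of all genes called. The median log2 change of the 18 sterol enzymes was then 0.26. Relative to the WT mean, the 9 astrocyte markers averaged between 0.03 and 0.29 in the double mutant, highest in libraries 21 (0.29) and 19 (0.21). They averaged between 0.05 and 0.17 in AppNLGF and between -0.04 and 0.06 in WT. In the double mutant against WT 2 rose and 1 fell. Their summed level was 5018 to 5706 CPM in the double mutant, 5115 to 5700 CPM in AppNLGF and 5028 to 5407 CPM in WT. Of the 10 microglial markers 7 rose and 0 fell, and their summed level ranged between 510.7 and 594.0 CPM in the double mutant, between 470.2 and 566.1 CPM in AppNLGF and between 374.6 and 431.6 CPM in WT. The 10 neuron markers averaged -0.18 in library 21 and -0.15 in library 19, against -0.117 to 0.025 in AppNLGF and -0.07 to 0.03 in WT. Their summed level ranged between 8541 and 9862 CPM in the double mutant and between 9129 and 10050 CPM in WT. By edgeR 1 of these 10 neuron markers rose and 0 fell, with 5 at an unadjusted p under 0.05, where 27.8% of all genes were. DESeq2 called 1 of them higher and 1 lower, and 13.8% of all genes. The oligodendrocyte covariate was added after seeing the data. The part of oligodendrocytes, neurons, astrocytes and microglia in the rise of the sterol genes was not tested.

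**Figure D4:**
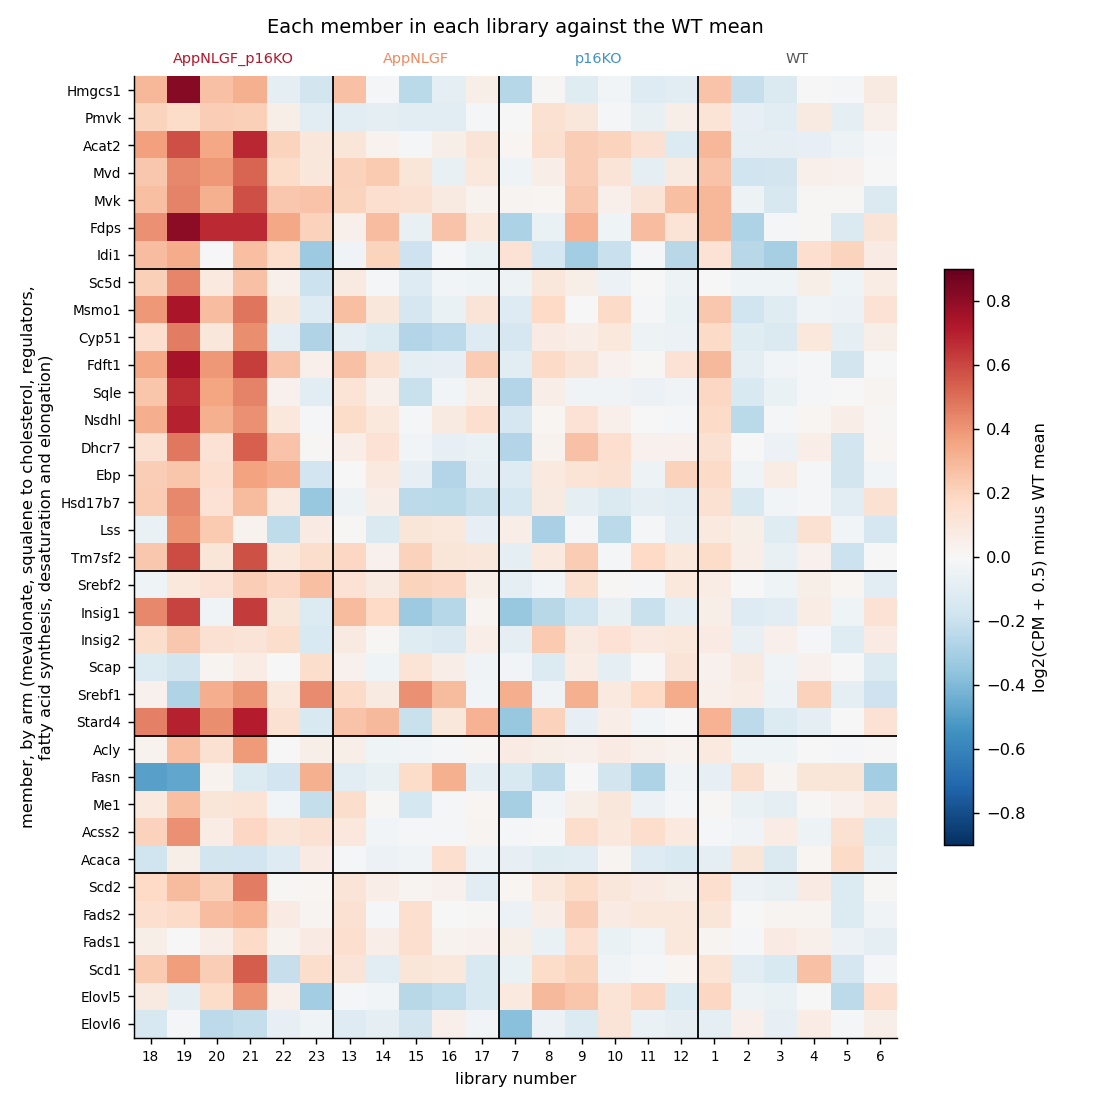
Each of the 35 genes in each library as log2(CPM + 0.5) minus the WT mean (red above, blue below), with genes ordered by arm and libraries by genotype. The red block covers the mevalonate and squalene arms in libraries 18 to 21, where Hmgcs1 and Fdps in library 19 are the deepest, and is absent from library 23.

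Neither mutation alone moved a member past the threshold. In p16KO against WT 0 of 35 were called, where 0.309% of all genes were. At an unadjusted p under 0.05 were 0 members and 15.8% of all genes, and DESeq2 called 0 members and 2.41% of all genes. The median log2 change was 0.03. The smallest p was that of Srebf1, between 49.9 and 64.5 CPM in p16KO (median 60.8) and between 44.9 and 59.0 CPM in WT (median 51.2), with an adjusted p of 0.331. Insig2 (57.4 to 71.3 CPM in p16KO, 56.3 to 63.8 CPM in WT) and Insig1 (46.4 to 56.2 CPM in p16KO, 54.4 to 64.6 CPM in WT) followed, with log2 changes of 0.10 and -0.19. The groups overlapped for all 3. In AppNLGF against WT 0 of 35 were called, where 0.319% of all genes were. DESeq2 called 0 members and 0.788% of all genes. Of all genes 8.54% had an unadjusted p under 0.05, against 1 member. That gene was Srebf2, with 251.2, 242.7, 264.5, 260.8 and 238.5 CPM in the AppNLGF libraries against 214.6 to 240.8 CPM in WT (median 231.2), an adjusted p of 0.518. Only AppNLGF library 17 lay within the WT range. Srebf1 (50.3 to 68.3 CPM in AppNLGF, 44.9 to 59.0 CPM in WT) and Fads1 (242.1 to 263.5 CPM in AppNLGF, 224.4 to 249.1 CPM in WT) came next, with log2 changes of 0.19 and 0.08. These comparisons and that of the double mutant share the 6 WT libraries.

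Set against each single mutant, the double mutant had higher means for all 18 sterol enzymes, yet no member passed. Against AppNLGF the median log2 change of the 35 was 0.20, against 0.01 over all genes. There 0 of 35 were called, where 0.0309% of all genes were, with 21 members at an unadjusted p under 0.05, where 23.5% of all genes were, and 4 called by DESeq2, which called 3.48% of all genes. Acat2 had 31.6, 36.5, 31.0, 39.1, 28.0 and 26.1 CPM in the double mutant and 26.2, 24.8, 24.1, 25.2 and 26.3 CPM in AppNLGF. Only double-mutant library 23, the lowest of its group, lay within the AppNLGF range. Its log2 change was 0.34 ± 0.09 and its adjusted p 0.112, as were those of Pmvk (0.22 ± 0.06) and Cyp51 (0.31 ± 0.10). Pmvk ranged between 27.5 and 34.3 CPM in the double mutant and between 27.3 and 29.0 CPM in AppNLGF, and Cyp51 between 68.9 and 114.5 CPM in the double mutant and between 69.1 and 78.5 CPM in AppNLGF. Without library 23, 22 of 35 were called higher and 1 lower, where 21.5% of all genes were called. Against p16KO the median log2 change was 0.15, and 0 of 35 were called, where 0.247% of all genes were, with 18 at an unadjusted p under 0.05, where 7.89% of all genes were, and 2 called by DESeq2, which called 0.52% of all genes. Insig1 ranged between 54.1 and 91.5 CPM in the double mutant (median 71.7) and between 46.4 and 56.2 CPM in p16KO (median 51.6), a log2 change of 0.49 ± 0.12 with an adjusted p of 0.124. Library 23 was again the one within the range of the other group. Fdps and Sqle followed, at 0.52 ± 0.13 and 0.35 ± 0.09, with 2.86 to 4.57 CPM of Fdps and 63.1 to 79.4 CPM of Sqle in p16KO. Without library 23, 6 of 35 were called, where 0.315% of all genes were.

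Whether the effect of p16 loss differed between App genotypes was tested directly as an interaction. By edgeR 0.0% of all genes passed, and 0 of 35 members did, with 6 members and 5.26% of all genes at an unadjusted p under 0.05. DESeq2 called 0 members and 0.00515% of all genes. The median interaction of the members was 0.18 on the log2 scale, and it was above 0 for all 18 sterol enzymes. The 3 smallest p were those of Hsd17b7 (0.37 ± 0.13), Insig1 (0.49 ± 0.17) and Sqle (0.35 ± 0.13), each with an adjusted p of 0.897. Hsd17b7 had a median of 37.3 CPM in the double mutant, 28.5 CPM in AppNLGF, 30.7 CPM in p16KO and 32.3 CPM in WT, with all 4 ranges overlapping. The greater rise with both mutations was therefore not shown to differ from the sum of the single effects.

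Averaged over both App genotypes, loss of p16 went with 4 members called higher and 0 lower, where 13.0% of all genes were called and 7.66% were called higher. They were Acat2 (0.22 ± 0.06, adjusted p = 0.0266), Mvk (0.18 ± 0.06, adjusted p = 0.0346), Acss2 (0.13 ± 0.04, adjusted p = 0.0380) and Pmvk (0.13 ± 0.04, adjusted p = 0.0473), as log2 changes. Pmvk had a median of 33.4 CPM in the double mutant and 27.4 CPM in AppNLGF, and of 29.9 CPM in p16KO and 29.1 CPM in WT. The share of 11.4% of the members is near that of all genes. The count was 0 without p16KO library 9 or AppNLGF library 16, when 6.96% and 3.88% of all genes were called. It was 1 without AppNLGF library 17, double-mutant library 21, p16KO library 12 or any of WT libraries 2, 4, 5 and 6 (6.1% to 10.8% of all genes), and 2 without AppNLGF library 15, double-mutant library 18 or 19, p16KO library 10 or WT library 3 (9.16% to 13.0%). It was 8 without p16KO library 7 (15.1%), 9 without WT library 1 (18.9%) and 18, of which 1 lower, without double-mutant library 23, when 26.5% of all genes were called. Averaged over both p16 genotypes, AppNLGF went with 0 of 35 called, where 0.793% of all genes were. DESeq2 called 0 members and 1.47% of all genes. At an unadjusted p under 0.05 were 13 members (37.1%) and 10.4% of all genes. Fdps (0.32 ± 0.10), Srebf2 (0.13 ± 0.04) and Nsdhl (0.21 ± 0.06) had the smallest p, with adjusted p between 0.140 and 0.161. Without library 23, 3 members were called, where 0.822% of all genes were, and without WT library 1 it was 1 member, where 0.712% of all genes were.

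Within genotypes Hmgcs1 varied with several sterol genes from library to library. After each genotype mean was subtracted, Hmgcs1 and Sqle had a Pearson r of 0.949 over the 23 libraries (permutation within genotype, adjusted p = 8e-05 over the 8 pairs computed) and a Spearman rho of 0.878 (adjusted p = 8e-05). The raw p of 1e-05 is the smallest that the draws can give. Without double-mutant libraries 19 and 23, the farthest on Hmgcs1, r was 0.907. Hmgcs1 went with Insig1 at an r of 0.752 (permutation, adjusted p = 0.00272; rho 0.731, adjusted p = 0.00248) and with Scd2 at 0.625 (adjusted p = 0.0453; rho 0.665, adjusted p = 0.00816). Without those libraries the values were 0.650 and 0.583. With Idi1 r was 0.495 (permutation, adjusted p = 0.0795; rho 0.322, adjusted p = 0.272). With Srebf2, whose product drives these genes, r was -0.288 (adjusted p = 0.358; rho -0.286, adjusted p = 0.303). Fasn ran against Hmgcs1, with an r of -0.644 (permutation, adjusted p = 0.0393; rho -0.604, adjusted p = 0.0190). That value was -0.412 without libraries 19 and 23, so its size rests partly on them.

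**Figure D5:**
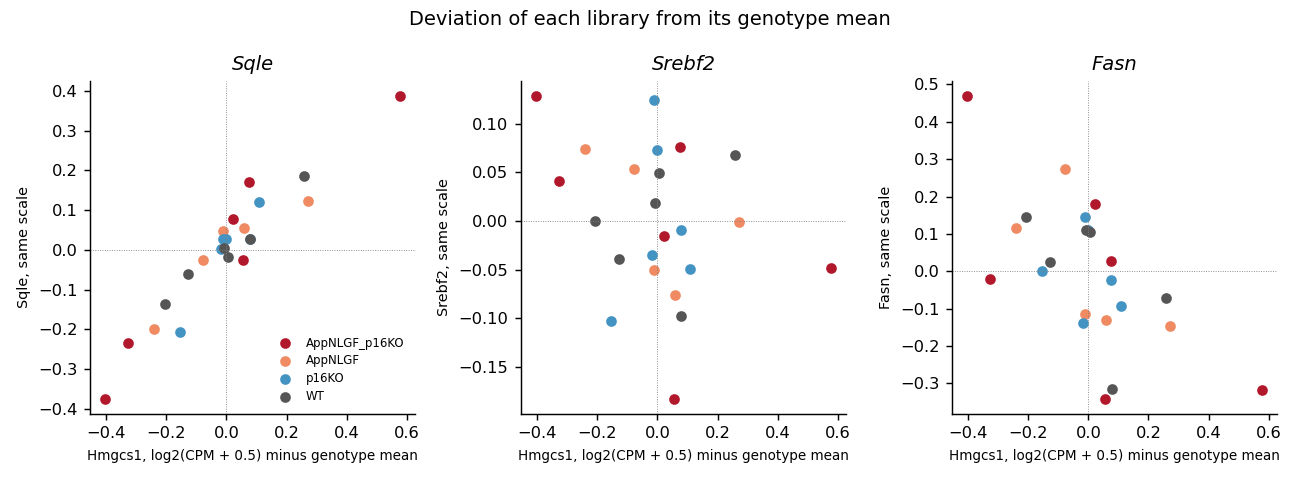
Deviation of each library from its genotype mean on the log2(CPM + 0.5) scale for Hmgcs1 (horizontal axis) against Sqle, Srebf2 and Fasn, coloured by genotype. Sqle follows Hmgcs1 closely (r = 0.949), Srebf2 does not (r = -0.288) and Fasn runs against it (r = -0.644).

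Of 11755 genes with a mean of 5 CPM or more, the closest to Hmgcs1 by this measure were Msmo1 (r = 0.955) and Sqle, and Nsdhl (0.923), Cyp51 (0.880), Fdft1 (0.868) and Stard4 (0.859) were also among the first 10. The genes outside the 35 among them included Rlim, a ubiquitin ligase (0.876), Pafah1b1, a regulator of dynein (0.864), and Ttc39b (0.862). Other sterol enzymes were farther from it, with an r of 0.466 for Mvk, 0.438 for Ebp and 0.319 for Lss. Over the 32 other members at this level the median r with Hmgcs1 was 0.591, against 0.081 over all genes. For Fasn the first 10 included Cntnap1, Mvb12b, Abca2, Pcnx3, Ints1, Iqsec1, Clstn1, Nlgn2 and Brsk2, with r between 0.920 and 0.932. None of the 32 other members was among the 100 genes closest to Fasn, and their median r with it was -0.375, against -0.083 over all genes. These r are descriptions over the same 23 libraries. The trend of log2 level on the exon length of genes also varied between libraries. Per doubling of length it ran from -0.07 to 0.02 in the double mutant and from 0.00 to 0.05 in WT. Its part in these r was not tested.

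The promoters of the sterol genes were read for the motif TCACNCCAC, a core of the sterol regulatory element that SREBP binds, and for CCAAT, the box bound by its partner NF-Y, on both strands. The RefSeq table of GRCm38.p6, with 250 bases before and 50 after each start, held 28 of the 35 members. The full core occurred in 1 of the 28, Hmgcs1, and in 1.24% of all 32851 promoters, or 1.44% of genes. With the last base free (TCACNCCA) it occurred in 3 of the 28 (10.7%) and in 4.36% of all promoters, or 4.97% of genes. CCAAT occurred in 23 of the 28 members (82.1%) and in 37.4% of all promoters, or 41.1% of genes. The 250 bases before the start of Hmgcs1 (chr13:119690101-119690350, plus strand) are shown because they hold the full core, in capitals, with its first base 137 bases before the start.
Hmgcs1: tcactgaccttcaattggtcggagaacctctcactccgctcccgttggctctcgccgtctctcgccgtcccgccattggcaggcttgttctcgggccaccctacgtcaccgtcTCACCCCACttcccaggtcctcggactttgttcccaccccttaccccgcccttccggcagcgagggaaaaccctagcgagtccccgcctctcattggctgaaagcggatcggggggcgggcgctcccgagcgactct
The shorter matches of Msmo1 (chr8:64733712-64733791, minus strand), the gene closest to Hmgcs1, and of Srebf2 (chr15:82147071-82147150, plus strand), which did not follow it, begin 177 and 162 bases before the start.
Msmo1: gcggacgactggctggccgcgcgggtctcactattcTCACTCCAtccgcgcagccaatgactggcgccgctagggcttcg
Srebf2: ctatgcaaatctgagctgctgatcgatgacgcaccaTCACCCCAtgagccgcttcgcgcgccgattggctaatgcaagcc
Mvk (chr5:114444019-114444268, plus strand) and Mvd (chr8:122443423-122443672, minus strand), called in the double mutant, hold no such core but 5 and 2 matches to CCAAT or its reverse complement ATTGG, in capitals.
Mvk: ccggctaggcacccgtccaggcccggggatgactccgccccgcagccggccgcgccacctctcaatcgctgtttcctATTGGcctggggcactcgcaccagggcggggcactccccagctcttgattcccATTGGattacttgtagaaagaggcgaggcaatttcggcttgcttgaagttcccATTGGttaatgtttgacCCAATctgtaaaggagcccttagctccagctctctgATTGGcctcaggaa
Mvd: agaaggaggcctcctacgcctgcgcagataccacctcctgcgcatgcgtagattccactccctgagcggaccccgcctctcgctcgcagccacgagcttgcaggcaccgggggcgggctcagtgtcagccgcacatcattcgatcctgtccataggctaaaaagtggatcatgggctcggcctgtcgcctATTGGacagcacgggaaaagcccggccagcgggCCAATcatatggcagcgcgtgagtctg
In Mvk the matches begin 173, 120, 67, 50 and 14 bases before the start, and in Mvd 60 and 27 bases before it. A match is a description of the letters and not a bound site.

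Other genes of the same pathways were counted in the double mutant against WT, where, as given above, 9.56% of all genes were called and 6.1% were called higher. Of 24 further genes of fatty acid metabolism 3 rose and 0 fell. Slc25a1, which exports citrate from mitochondria, averaged 42.6 ± 4.23 CPM in the double mutant and 35.3 ± 1.44 CPM in WT (adjusted p = 0.0116). Tecr, a reductase of very long chain fatty acids, averaged 310.6 ± 40.4 CPM in the double mutant and 248.1 ± 21.5 CPM in WT (adjusted p = 0.0155). For both genes all 6 double-mutant libraries were above every WT library. Aacs, which makes acetoacetyl-CoA in the cytosol, averaged 58.8 ± 5.87 CPM in the double mutant and 51.3 ± 3.81 CPM in WT (adjusted p = 0.0374). Of 14 further sterol genes 1 rose and 0 fell, and of 14 genes of cholesterol efflux, transport and turnover 2 rose and 0 fell. One of these was Npc2, a lysosomal cholesterol carrier, at 85.6 ± 10.9 CPM in the double mutant and 68.4 ± 8.37 CPM in WT (adjusted p = 0.0232). Of 14 genes of fatty acid oxidation 0 were called, and the smallest p was that of Acadvl, at an adjusted p of 0.0721. DESeq2 called 0 of the 14 and 13.8% of all genes. At an unadjusted p under 0.05 were 5 of the 14 (35.7%), against 27.8% of all genes. The median log2 change of these 4 lists lay between 0.04 and 0.09.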

How the data were processed

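Per the labels' protocols, stranded polyA libraries were sequenced as single-end reads of 50 bases. Per the submitters' processing notes and design text, reads were trimmed with cutadapt 4.2, freed of rRNA with Bowtie2 2.3.5, aligned with STAR 2.7.10b, and uniquely aligned reads were counted per gene on Ensembl annotation. The authors deposited raw counts per gene, not normalized, in 1 table of 23 libraries.

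From these counts, genes were kept by edgeR's filterByExpr (minimum count 10), scaled by TMM and tested with edgeR 4.0.16 (quasi-likelihood, robust, two-sided) in 1 model of all 23 libraries with a mean per genotype, adjusted by Benjamini-Hochberg over 19423 genes, for 8 contrasts. The common dispersion was 0.0249, a coefficient of variation of 15.8% between animals. The notes list both GRCm38 and mm39, the design text names GRCm38, and the table's coordinates match GENCODE M21 (GRCm38) for all 35 members. Levels are CPM, and lengths are exon unions of that annotation. Permutation tests drew 100000 shuffles within genotype.

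The members and gene lists were chosen with earlier results of these data known. All members are named. Values in each library, or their lowest, median and highest, were given for members called in a contrast between genotypes, and ranges or medians for the 3 with the smallest p where none was called. Of other lists up to 3 called genes were named, and of each likeness ranking the first 10. Not every gene that this rule picks out is reported here. Alternatives were DESeq2 1.42.0, RLE size factors, no count filter, a filter of 15 reads in 90% of libraries, no robust dispersion, only the genotypes compared, Xist level, 1 surrogate variable (sva 3.50.0), removal of length and GC trends, and omission of each library and of those past the authors' distance limit. A covariate for oligodendrocyte markers was added after seeing the data.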

Additional observations from a re-analysis of the deposited data

Results flagged for a closer look

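In 6 of 84 groups of libraries, for the members described in detail, 1 library stood far from the rest of its group, by the gap to its neighbour relative to the range. Chance flags about 1 in 20 groups. WT library 1 was such a library for 3 mevalonate and squalene genes, with 30.0 CPM of Acat2, 22.1 CPM of Mvk and 83.6 CPM of Fdft1, each the highest of its genotype. In the double mutant it was library 23 for Insig2, at 55.2 CPM, the lowest of that group. In AppNLGF it was library 17 for Pmvk, at 29.0 CPM, and in p16KO library 8 for Hsd17b7, at 34.8 CPM, each the highest of its group.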

How the results depend on the processing

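In the double mutant against WT the members called were 7 with no count filter (2.88% of all genes called), 4 with only those genotypes in the fit (3.29%), 4 without the library past the distance limit (2.36%) and 4 with the oligodendrocyte covariate (2.69%), against 13 in the analysis reported (9.56%), and 4 to 23 with 1 library left out. For the average effect of p16 loss they were 1 with no count filter (3.67%), 10 with length and GC trends removed (18.2%), 1 without the library past the distance limit (7.29%) and 0 with the oligodendrocyte covariate (4.69%), against 4 (13.0%), and 0 to 18 with 1 library left out. DESeq2 called 4 members in the double mutant against AppNLGF and 2 against p16KO (3.48% and 0.52% of all genes), where edgeR called 0 (0.0309% and 0.247%). With 1 library left out these counts ranged over 0 to 23 and 0 to 6, and over 0 to 3 for the average effect of AppNLGF. No member was called in p16KO against WT, AppNLGF against WT or the interaction under any alternative. The median log2 change of the members in the double mutant against WT was 0.14 to 0.24 with 1 library left out. The cause of these changes was not tested. No paired analysis was possible because the replicate numbers are not shared between genotypes. Each genotype had 5 or 6 animals, and many of the calls changed when 1 library was left out.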
